A study of Mus musculus with 8 samples.

Results

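Phagocytic activated microglia are marked by a small set of genes whose products handle lipid, coat debris or sit in lysosomes and at the cell surface, and 7 of them were followed here: Gpnmb, Cst7, Lgals3, Lpl, Fabp5, Cd9 and Spp1. They were taken by name, and each gene was read from the probe set that the platform annotation assigns to its symbol alone, with the highest mean over the arrays where there were several. Values could be read for 6 of the 7, out of 22180 genes named on the array, and all 6 passed the filter on dim genes that left 15526 genes for testing. No probe set was assigned to Spp1, the gene of the secreted adhesion protein osteopontin, and its expression was not analysed here.

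The samples were medulloblastomas, tumours of the cerebellum, harvested at postnatal day 15 from mice that had received no agent. The Bcl2l1-deleted group (4 tumours, genotype Math1-Cre/SmoM2/Bcl2l1 f/f) carried floxed alleles of Bcl2l1, whose product BCL-xL protects cells from apoptosis. The control group (4 tumours, genotype Math1-Cre/SmoM2) had no floxed allele in its genotype. Both groups carried Math1-Cre and SmoM2, an active form of the Sonic hedgehog transducer Smoothened, and the Math1 (Atoh1) promoter drives Cre in granule neuron precursors, so the deletion was aimed at the tumour lineage and not at microglia. Each tumour came from its own animal, per the design text, and was measured on 1 whole-transcript array as log2 RMA expression values. Because a further label gives every one of the 8 samples as deleted, the groups follow the titles and the genotype. In whole tumours, fewer cells of a type and less RNA per cell cannot be told apart.

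Microglia are the resident macrophages of the brain. When they take up dying cells, myelin or other debris, they raise a shared set of genes, described in development, in injury and around amyloid, while many of the genes of resting microglia are turned down. In the young cerebellum such cells lie along the developing white matter, where they clear surplus cells. Gpnmb encodes a transmembrane glycoprotein of lysosomes, Cst7 the cysteine protease inhibitor cystatin F, Lgals3 the sugar-binding protein galectin-3, Lpl the enzyme lipoprotein lipase, Fabp5 a carrier of fatty acids inside the cell and Cd9 a tetraspanin of the cell surface. None of these genes is used by microglia alone, and Cd9 and Fabp5 are also known from glia and their precursors.

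Bcl2l1 itself stood at 5.46, 5.46, 5.69 and 5.32 on the Bcl2l1-deleted arrays, against 6.88, 6.57, 6.93 and 6.98 on the control arrays (log2 values, replicates 1 to 4). The groups did not overlap (change -1.36, adjusted p = 0.00509), although the position of its probe set relative to the floxed exons is unknown here. Granule neuron progenitor markers, such as Atoh1, gave mean log2 values of 9.94 to 10.05 on the Bcl2l1-deleted arrays and 9.48 to 10.05 on the control arrays. Control replicate 2 stood apart: over all probe sets its correlations with the other arrays were 0.881 to 0.925, where every other pair had 0.956 to 0.981. Genes of olfactory and vomeronasal receptors, taken as a gauge of background, had a median of 2.79 to 2.92 on the Bcl2l1-deleted arrays, 2.94 to 3.09 on control replicates 1, 3 and 4 and 3.60 on control replicate 2. Several results below are also given without that array.

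Of the 6 measured genes, 1 rose in the Bcl2l1-deleted tumours, none fell and 5 did not pass an adjusted p of 0.05 (limma, Benjamini-Hochberg over the 15526 genes). Among all tested genes 6.52% passed, 4.93% higher and 1.6% lower, so 1 call among 6 genes is not read as a property of the set. At an unadjusted p under 0.05, 2 of the 6 passed, against 4730 of the 15526. The median fitted change of the 6 genes was 0.29 on the log2 scale, and the median tested gene was itself 0.17 higher in the Bcl2l1-deleted tumours, which leaves 0.11 relative to it. Levels of different genes are not ranked, since probe sets bind with different strength.

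**Figure D1:**
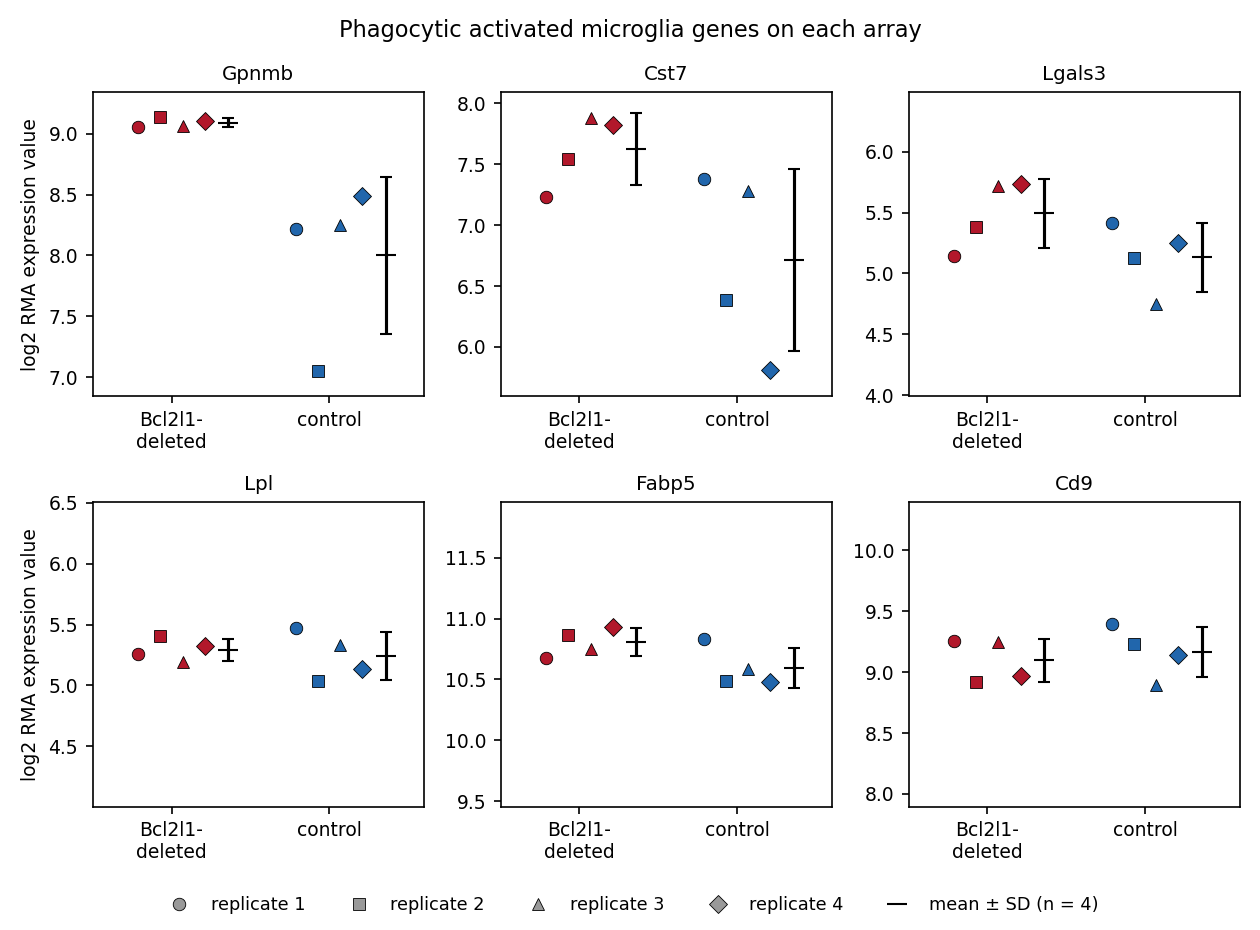
Log2 RMA expression value (y axes, each spanning the same range of log2 units) of the 6 measured genes on each array of the Bcl2l1-deleted (red) and control (blue) groups, with marker shape for the replicate and the mean ± SD (n = 4) beside each group. Gpnmb is the gene whose groups do not overlap, and Cst7 has the widest control group, from 5.81 to 7.38.

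Gpnmb was the gene that rose, by 2.13-fold. It encodes a glycoprotein that lysosome-rich phagocytes make in quantity, and it is also known from melanocytes and bone cells. Its log2 values were 9.06, 9.13, 9.07 and 9.10 on the Bcl2l1-deleted arrays, against 8.22, 7.05, 8.25 and 8.48 on the control arrays. The Bcl2l1-deleted arrays lay close together above every control, and control replicate 2 was the lowest of all. The means were 9.09 ± 0.04 and 8.0 ± 0.64 (SD, n = 4 each), a fitted change of 1.09 (SE 0.27, 95% interval 0.49 to 1.69, adjusted p = 0.0415) and 0.92 relative to the median tested gene. Groups did not overlap for 1 of the 6 genes, against 23.4% of all tested genes (19% with the Bcl2l1-deleted group higher). Without control replicate 2 the change was 0.77 and passed more clearly (adjusted p = 0.00660), where 13.5% of all genes passed, 8.95% as higher. Leaving out any 1 Bcl2l1-deleted array ended the call (adjusted p = 0.123, 0.122, 0.0797 and 0.0936 for replicates 1 to 4), as did leaving out control replicate 3 (0.0593) or 4 (0.0671). It was also lost with no filter on dim genes (0.0582), and after adjusting for the receptor median, where the change was 0.53 (0.123).

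Cst7 had the next largest fitted change but did not pass. Cystatin F, its product, is stored in lysosome-like granules and restrains cathepsins there, and the gene is also used by natural killer and T cells. Its log2 values were 7.24, 7.55, 7.88 and 7.82 on the Bcl2l1-deleted arrays, against 7.38, 6.39, 7.28 and 5.81 on the control arrays. Control replicates 1 and 3 lay within the lower end of the Bcl2l1-deleted group, and control replicates 2 and 4 well below it. The fitted change was 0.91 (SE 0.32, 95% interval before adjustment 0.19 to 1.62, adjusted p = 0.0996), 1.88-fold. It passed without control replicate 1 (1.13, adjusted p = 0.0465).

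The sequences before the start sites of Gpnmb and Cst7 are shown because these genes had the largest fitted differences of the set. They are the 250 bases upstream in RefSeq's annotation of build GRCm38.p6, read 5′ to 3′ on the plus strand, at chr6:49036268-49036517 for Gpnmb and chr2:150570165-150570414 for Cst7.
Gpnmb: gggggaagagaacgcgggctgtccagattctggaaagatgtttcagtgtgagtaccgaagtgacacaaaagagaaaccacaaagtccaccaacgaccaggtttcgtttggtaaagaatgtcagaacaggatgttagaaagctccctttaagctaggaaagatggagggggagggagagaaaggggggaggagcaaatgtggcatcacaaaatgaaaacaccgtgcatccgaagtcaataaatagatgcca
Cst7: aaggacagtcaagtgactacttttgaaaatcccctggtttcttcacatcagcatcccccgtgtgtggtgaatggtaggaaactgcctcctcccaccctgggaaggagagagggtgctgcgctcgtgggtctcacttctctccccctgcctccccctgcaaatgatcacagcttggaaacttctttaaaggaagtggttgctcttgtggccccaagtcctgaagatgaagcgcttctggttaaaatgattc
Both strands were searched for CACGTG (bound by MITF and TFE factors), GAGGAA (the core of PU.1 sites), TGANTCA (AP-1) and AGGTCA (a core site of nuclear receptors), and any match would stand in capitals. Neither window holds any of these letters in that order, nor do the windows of Lgals3 and Cd9 from the same table. Of 32851 promoter windows in the table, 6.02% hold CACGTG, 23.3% GAGGAA, 6.75% TGANTCA and 14.0% AGGTCA, so a window without a match is common. The first of the Spp1 windows (chr5:104434861-104435110) holds 1 GAGGAA, 107 bases before the start site, though Spp1 has no expression value here.

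Lgals3 encodes galectin-3, which binds damaged lysosomes and sugars on cell surfaces. Its log2 values were 5.15, 5.38, 5.72 and 5.73 on the Bcl2l1-deleted arrays, against 5.41, 5.12, 4.75 and 5.25 on the control arrays. The groups overlapped through Bcl2l1-deleted replicates 1 and 2, and the fitted change of 0.36 did not pass (95% interval before adjustment -0.07 to 0.79, adjusted p = 0.229).

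Lpl, whose product releases fatty acids from lipoproteins at the cell surface, gave 5.25, 5.41, 5.19 and 5.32 on the Bcl2l1-deleted arrays, against 5.47, 5.04, 5.33 and 5.14 on the control arrays. The Bcl2l1-deleted values lay inside the range of the controls. Its fitted change was 0.048 (95% interval before adjustment -0.28 to 0.38, adjusted p = 0.844), and the sign turned when arrays were centred on the tested genes (-0.21), with the receptor median as a covariate (-0.10) or without control replicate 2 (-0.022). Its other probe set changed by 0.27 and did not pass either (adjusted p = 0.340).

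Cd9 gave 9.26, 8.92, 9.25 and 8.97 on the Bcl2l1-deleted arrays, against 9.39, 9.23, 8.90 and 9.14 on the control arrays. The product is a membrane organiser found in many cell types, myelinating glia among them. Neither group was the higher one on most arrays, and the fitted change was -0.067 (95% interval before adjustment -0.42 to 0.29, adjusted p = 0.795), with the sign turned when arrays were centred on the median of all probe sets (0.11), without control replicate 1 (0.0095) and with the dimmer probe set (0.017). Markers of myelinating oligodendrocytes had mean log2 values of 6.25 to 7.68 on the Bcl2l1-deleted arrays and 7.32 to 8.67 on the control arrays, with 2 of 9 tested markers lower, and their part in the Cd9 level was not tested.

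Fabp5, which carries fatty acids to enzymes and to the nucleus, depended on the probe set. On the one used for the gene, the log2 values were 10.67, 10.87, 10.75 and 10.93 on the Bcl2l1-deleted arrays, against 10.83, 10.49, 10.58 and 10.48 on the control arrays. Control replicate 1 lay among the Bcl2l1-deleted values, and the fitted change of 0.21 did not pass (95% interval before adjustment -0.11 to 0.54, adjusted p = 0.335), turning to -0.0465 when arrays were centred on the tested genes.

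A different reading came from probe set 17404073, which also names Fabp5 alone. It gave 7.53, 7.06, 7.05 and 7.08 on the Bcl2l1-deleted arrays, against 6.18, 5.56, 6.17 and 5.53 on the control arrays. All Bcl2l1-deleted arrays were above all controls. With every probe set past the dim filter fitted separately, a fit chosen after seeing the data (16421, of which 6.62% passed and 4.74% were higher) its change was 1.32 (SE 0.21, adjusted p = 0.0139), the largest among the 11 probe sets of the 6 genes. Probe set 17396056 did not overlap between the groups either, with 7.24 to 7.53 on the Bcl2l1-deleted arrays and 6.54 to 7.11 on the control arrays, and narrowly missed the threshold (change 0.61, adjusted p = 0.0554). The fourth, 17548717, changed by 0.24 (adjusted p = 0.288), close to the one used. With the mean of the 4 probe sets Fabp5 passed (0.60, adjusted p = 0.0478). RefSeq also lists a related gene, Fabp5l2, and which of the probe sets bind transcripts of gene copies was not tested. All 4 changes were positive on the deposited values but differed in size and call. The one used for the gene turned in sign when arrays were centred on the tested genes, so no single change is given for Fabp5.

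**Figure D2:**
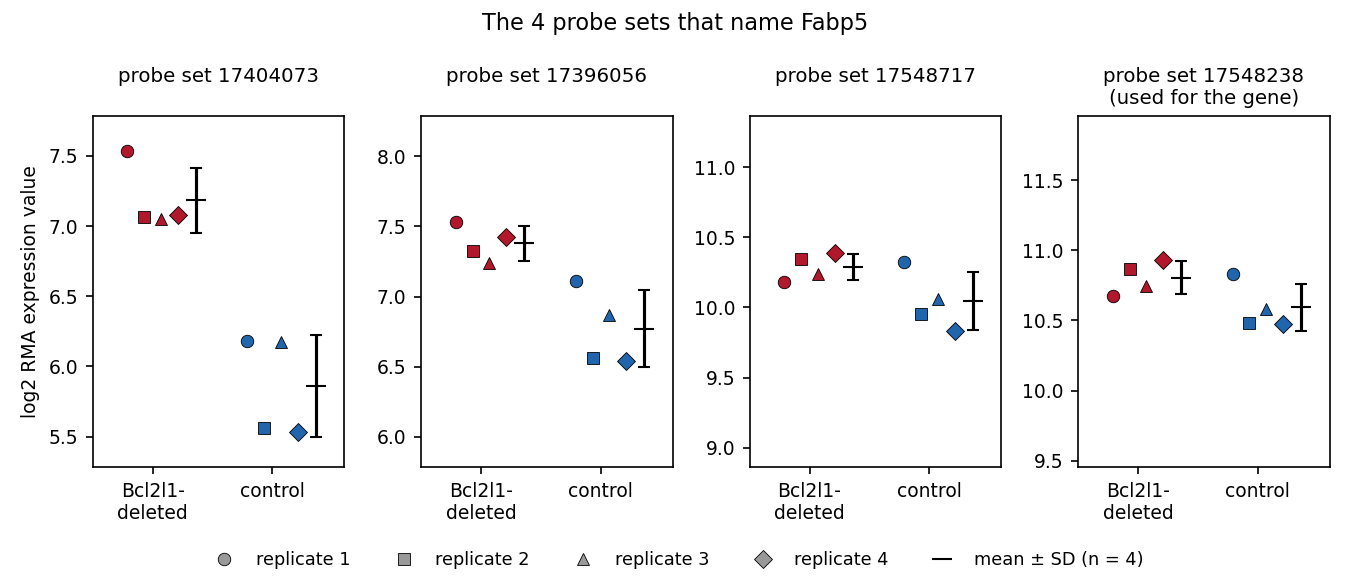
Log2 RMA expression value (y axes, each spanning the same range of log2 units) of the 4 probe sets that name Fabp5, from the dimmest at the left to the brightest, on the Bcl2l1-deleted (red) and control (blue) arrays, with mean ± SD (n = 4). The groups separate on the dimmer pair and overlap on the brighter pair, which includes the probe set used for the gene.

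The mean of the microglia markers was higher in the Bcl2l1-deleted tumours, so each gene was also set against it. The mean log2 value of 18 microglia markers was 7.45, 7.39, 7.50 and 7.28 on the Bcl2l1-deleted arrays, against 6.94, 6.08, 6.80 and 6.23 on the control arrays. The groups did not overlap, and control replicates 2 and 4 were the lowest. Among the 18 markers, 9 were called higher, 0 lower and 9 neither, against 4.93% higher and 1.6% lower of all tested genes. The lists were chosen with earlier results of these data known, so the list counts here and below are descriptions. Of the 18 fitted changes, 17 were positive. The 3 markers with the smallest p were the pan-leukocyte phosphatase gene Ptprc, the cytoskeletal gene Aif1 and the protease gene Ctss. They rose by 1.19 ± 0.17 (fitted log2 change ± SE, adjusted p = 0.0120), 1.29 ± 0.21 (0.0140) and 1.25 ± 0.20 (0.0140). Among the 9 that did not pass, Tmem119 changed by 0.45 (adjusted p = 0.144) and Cx3cr1 by 0.41 (0.137). Sall1 changed by 0.76 (0.102), P2ry12 by 1.12 (0.0679) and Siglech by -0.31 (0.270). The number of microglia markers called higher was 0, 1, 3 and 4 with Bcl2l1-deleted replicate 1, 2, 3 or 4 left out, and 14, 10, 6 and 3 with control replicate 1, 2, 3 or 4 left out. Calls over all genes moved in the same fits: 0.129%, 0.303%, 2.92% and 1.44% of tested genes passed with Bcl2l1-deleted replicate 1, 2, 3 or 4 left out, and 12.9%, 13.5%, 2.97% and 1.01% with control replicate 1, 2, 3 or 4 left out.

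After subtracting each array's microglia mean, Gpnmb and Cst7 differed little between the groups. Gpnmb changed by 0.20 (95% interval before adjustment -0.36 to 0.75, adjusted p = 0.489), with the sign turned under the receptor covariate (-0.0285). Cst7 changed by 0.017 (-0.53 to 0.56, adjusted p = 0.952), with the sign turned in 6 of 20 other settings. With 1 array left out, the Gpnmb value ran from 0.026 (without control replicate 2) to 0.45 (without control replicate 4), and with array weights it passed, at 0.26 (adjusted p = 0.0471). A p above the threshold does not show that the genes moved with the microglia markers.

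Lpl, Cd9 and, on the probe set used for the gene, Fabp5 fell relative to the microglia markers. The changes were -0.84 for Lpl (SE 0.21, adjusted p = 0.00607), -0.96 for Cd9 (SE 0.24, adjusted p = 0.00668) and -0.68 for Fabp5 (SE 0.22, adjusted p = 0.0166), while Lgals3 at -0.53 did not pass (adjusted p = 0.0927). On this scale 67.6% of all tested genes passed, which divides into 67.2% of all tested genes lower and 0.348% higher, so 3 lower genes of 6 are not read as a property of the set. The Lpl and Cd9 calls held with each array left out in turn. On the deposited values Lpl and Cd9 changed by 0.048 and -0.067, so the subtracted microglia mean makes up most of each fall. Lpl and Lgals3 lay below the median gene (5.58), and neither was tested in the fit that left out genes up to it. Leaving out Bcl2l1-deleted replicate 1 or 3 ended that of Fabp5 (adjusted p = 0.0601 and 0.0544), and Lgals3 passed without control replicate 3 (-0.76, adjusted p = 0.0224). For Fabp5 the result again followed the probe set, with -0.30 for the mean of its probe sets (adjusted p = 0.197) and 0.43 on the dimmest one (adjusted p = 0.0751). None of the 6 passed with the receptor median as a covariate.

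**Figure D3:**
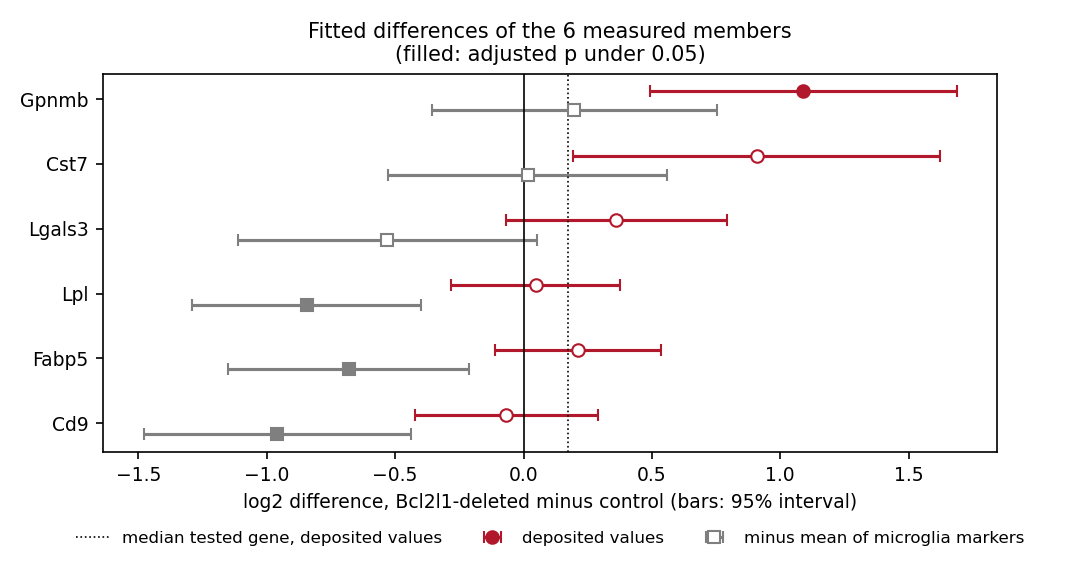
Fitted log2 difference, Bcl2l1-deleted minus control, with 95% interval (x axis) for the 6 measured genes, from the deposited values (red circles) and after subtracting each array's mean of the microglia markers (grey squares), with filled symbols where the adjusted p was under 0.05. Gpnmb passes on the deposited values. Lpl, Cd9 and, on the probe set used for the gene, Fabp5 pass as lower relative to the microglia markers.

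Within the control group Gpnmb and Cst7 went apart. Control replicate 4 had the highest Gpnmb of the controls (8.48) and the lowest Cst7 (5.81), with a microglia mean of 6.23. Control replicate 2 had a like microglia mean of 6.08 with Gpnmb at 7.05 and Cst7 at 6.39. Cst7 minus the microglia mean ranged from -0.21 to 0.55 on the Bcl2l1-deleted arrays and from -0.42 to 0.48 on the control arrays. For Gpnmb the ranges were 1.57 to 1.83 on the Bcl2l1-deleted arrays and 0.97 to 2.26 on the control arrays.

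**Figure D4:**
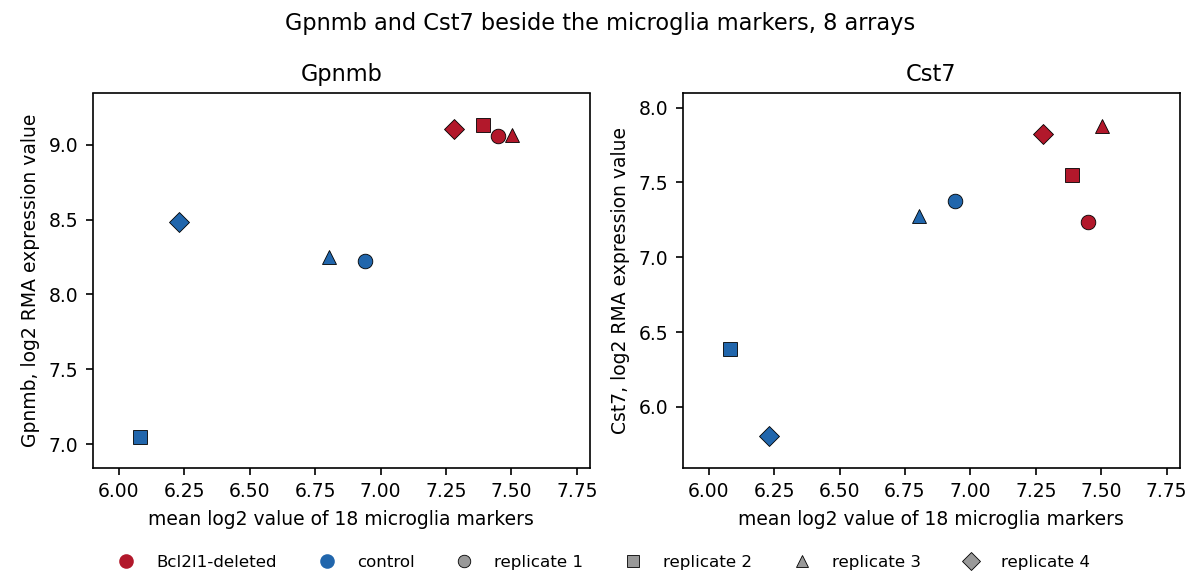
Log2 RMA expression value of Gpnmb (left) and Cst7 (right) on each array against that array's mean log2 value of 18 microglia markers (x axes), with Bcl2l1-deleted arrays in red, control arrays in blue and marker shape for the replicate. Control replicate 4, with a microglia mean of 6.23, is the highest control for Gpnmb and the lowest for Cst7.

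The 6 genes did not form 1 pattern over the 8 arrays. Of the 15 pairs, Cst7 and Fabp5 had the highest Pearson r (0.84, and 0.72 after subtracting group means). After subtracting group means the highest was that of Lpl and Fabp5 (0.84, and 0.74 before). Lpl and Cst7 had r = 0.61, and 0.67 after subtracting group means. Gpnmb and Cst7 had r = 0.59, which fell to 0.10 after subtracting group means. Cd9 ran from r = -0.27 with Gpnmb to r = 0.20 with Lgals3. These are descriptions over 8 arrays that share the group difference, and in part 1 outlying array.

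By likeness to the mean of the 6 genes over the 8 arrays, the nearest genes were Rasl11a, a small GTPase gene (r = 0.993), Mertk, a receptor that engulfs apoptotic cells (r = 0.992), Pvr, an adhesion receptor (r = 0.989), Gins1, a subunit of the replication helicase (r = 0.982), and Cyp4v3, a fatty acid hydroxylase (r = 0.981). Rasl11a stood at 7.27, 7.42, 7.47 and 7.66 on the Bcl2l1-deleted arrays, against 7.18, 6.22, 6.74 and 6.54 on the control arrays. The mean of the 6 genes itself was higher in the Bcl2l1-deleted group (7.90, against 7.48 in the control group), and genes chosen for likeness to it carry that difference, so they are described without a test.

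Other genes of activated microglia were followed beside the 6, without a test between the lists. Of 22 tested, 8 were called higher, 0 lower and 14 neither (Atp6v0d2, described below, is among the 8). Among all tested genes 4.93% were higher and 1.6% lower. Their median change was 0.76, against 0.17 for all tested genes, and 21 of the 22 changes were positive. Among the 14 that did not pass, Itgax changed by 0.011 (adjusted p = 0.972) and Ccl4 by -0.37 (0.260). Clec7a changed by 0.89 (0.266), with 6.58, 5.64, 8.06 and 5.42 on the Bcl2l1-deleted arrays and 4.70 to 6.21 on the control arrays. Lilrb4a, Igf1 and Atp6v0d2 had the smallest p of the list. Lilrb4a, an inhibitory receptor, stood at 7.89, 7.70, 7.71 and 8.29 on the Bcl2l1-deleted arrays, against 5.78, 5.78, 5.86 and 4.63 on the control arrays. It rose by 2.39 on the log2 scale (SE 0.27, adjusted p = 0.00509), well clear of the spread of either group. The growth factor gene Igf1 rose by 1.37 (SE 0.20, adjusted p = 0.0120), and for Atp6v0d2, a subunit of the lysosomal proton pump, the fitted change was 2.01. All 4 control values of Atp6v0d2 (3.28 to 4.35) lay under the dim cut of 4.38 and the Bcl2l1-deleted values (4.88 to 6.46) above it, so it entered the test through the Bcl2l1-deleted group alone and its change is a description. Trem2, a lipid receptor of microglia, and its adaptor Tyrobp were chosen after their values were seen: Trem2 rose by 1.12 (adjusted p = 0.0468) and Tyrobp changed by 0.91 (adjusted p = 0.0590). The Trem2 call held in 3 of 8 fits that left out 1 array, with 0.87 without control replicate 2, and was lost with no filter on dim genes (adjusted p = 0.0646), with arrays centred on the tested genes (0.0556) and after adjusting for the receptor median (0.196). The number of these genes called higher was 2, 2, 4 and 4 with Bcl2l1-deleted replicate 1, 2, 3 or 4 left out, and 12, 10, 7 and 3 with control replicate 1, 2, 3 or 4 left out.

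Partners of Lpl and Fabp5 in lipid handling had 5 of 21 tested genes higher, 1 lower and 15 that did not pass, with a median change of 0.25. Beside this count and those of the lists below, 4.93% of all tested genes were higher and 1.6% lower. Plin2, the coat of lipid droplets, stood at 8.80, 8.87, 8.72 and 8.72 on the Bcl2l1-deleted arrays, against 8.01, 7.97, 8.16 and 7.87 on the control arrays. The groups were apart with a narrow spread in each, and the change was 0.78 (SE 0.14, adjusted p = 0.0170). Nr1h3, the sterol-sensing liver X receptor, rose by 0.72 (adjusted p = 0.0228) and the apolipoprotein gene Apoc1 by 1.34 (adjusted p = 0.0245). The gene that fell was Fabp3, a relative of Fabp5 known from muscle and neurons, named after its value was seen (-0.76, adjusted p = 0.0436). Fabp4 lay below the dim filter and was not tested. The number of the lipid genes called higher was 0, 0, 3 and 2 with Bcl2l1-deleted replicate 1, 2, 3 or 4 left out, and 7, 7, 3 and 0 with control replicate 1, 2, 3 or 4 left out.

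Cystatins and lysosomal proteases had 3 of 10 tested genes higher and none lower, with a median change of 0.65. Ctsh (1.48, adjusted p = 0.0216), Ctsz (0.78, 0.0245) and Ctsc (1.17, 0.0344) rose, all of them lysosomal cysteine proteases, and cathepsin C is a known target of the inhibitor that Cst7 encodes. Ctsc stood at 7.86 to 8.29 on the Bcl2l1-deleted arrays, against 6.02 to 7.39 on the control arrays, so the groups did not overlap while those of Cst7 did. The number of these genes called higher was 0, 0, 1 and 0 with Bcl2l1-deleted replicate 1, 2, 3 or 4 left out, and 8, 5, 2 and 0 with control replicate 1, 2, 3 or 4 left out.

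Receptors and binding partners of osteopontin and galectin-3 had 2 of 11 tested genes higher and none lower, with a median change of 0.31. Cd44, a receptor for hyaluronan and osteopontin, rose by 0.83 (SE 0.15, adjusted p = 0.0180), with 6.19 to 6.34 on the Bcl2l1-deleted arrays and 5.22 to 5.67 on the control arrays. Lgals3bp, the galectin-3 binding protein, rose by 1.41 (adjusted p = 0.0468), though its other probe set changed by 0.68 and did not pass (adjusted p = 0.143), and without control replicate 2 the change was 1.01. Mertk, to which galectin-3 can bind, changed by 0.58 (adjusted p = 0.0740). The number of these receptors and binding partners called higher was 0, 0, 1 and 1 with Bcl2l1-deleted replicate 1, 2, 3 or 4 left out, and 3, 2, 2 and 1 with control replicate 1, 2, 3 or 4 left out.

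Relatives of Cd9 among the tetraspanins, and of Lgals3 among the galectins, had 4 of 10 tested genes higher and none lower, with a median change of 0.48. The leukocyte tetraspanin genes Cd53 (1.62, adjusted p = 0.0267) and Cd37 (1.03, 0.0411) rose, as did Cd151 (1.07, 0.0379), which partners integrins. Cd53 stood at 8.65, 8.16, 8.79 and 8.20 on the Bcl2l1-deleted arrays, against 7.78, 6.15, 7.15 and 6.22 on the control arrays. Without any one of Bcl2l1-deleted replicates 1 to 4 none of these relatives was higher, and without control replicates 1 to 4 in turn 4, 3, 1 and 0 were.

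**Figure D5:**
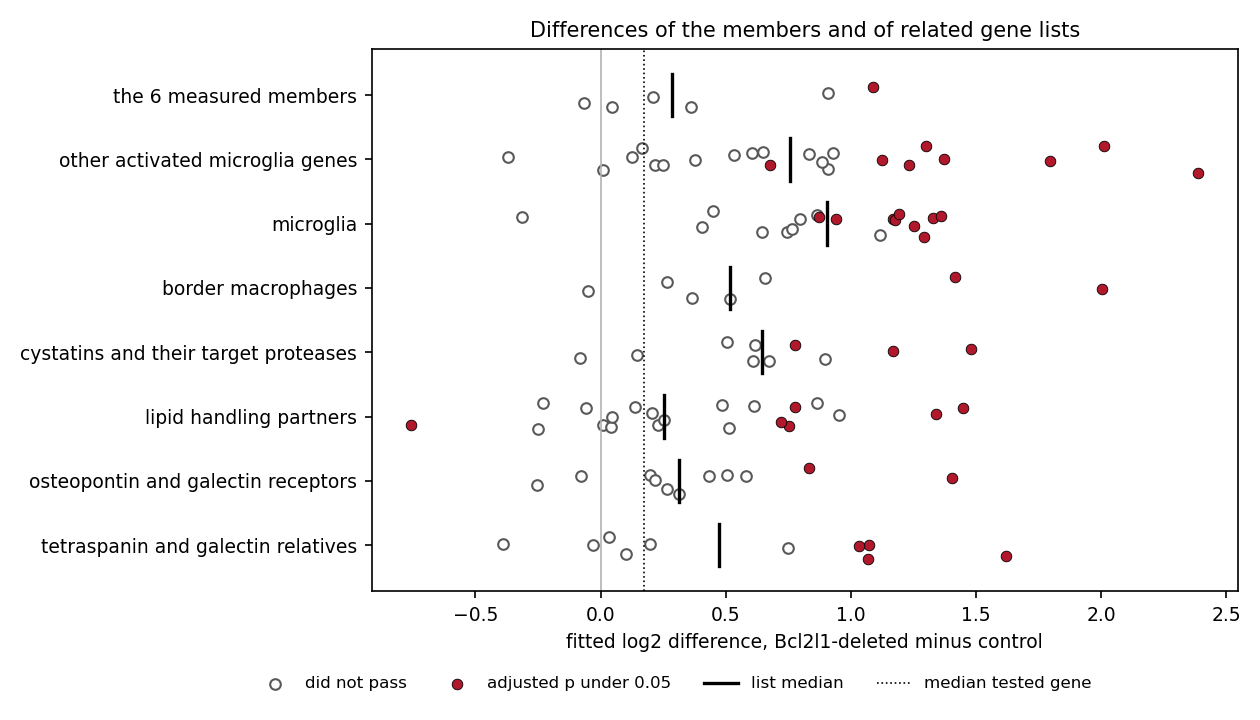
Fitted log2 difference, Bcl2l1-deleted minus control (x axis), of each tested gene in the set and in 7 related lists (rows), with red points where the adjusted p was under 0.05, a black bar at the list median and a dotted line at the median tested gene (0.17). The 6 measured genes have 1 red point, Gpnmb, and a median of 0.29, against 0.76 for the other activated microglia genes and 0.91 for the microglia markers.

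The higher counts of all these lists were smaller without Bcl2l1-deleted replicate 1. Higher calls over all 15526 tested genes moved too. They numbered 16, 37, 256 and 185 with Bcl2l1-deleted replicate 1, 2, 3 or 4 left out. With control replicate 1, 2, 3 or 4 left out they numbered 1612, 1390, 357 and 118. The list medians are descriptions without a test. Of the single genes named from these lists, Lilrb4a passed in all 8 fits that left out 1 array, Igf1 and Ptprc in 7, Cd44, Aif1 and Ctss in 6, Plin2 in 5, Apoc1 and Ctsh in 4, Nr1h3, Ctsz, Cd53 and Lgals3bp in 3 and Ctsc, Cd37, Cd151 and Fabp3 in 2. With the receptor median as a covariate the higher genes numbered 6 of 22 for the activated microglia list, 2 of 21 for lipid handling, 1 of 11 for the receptors and binding partners, 0 of 10 for the cystatins and proteases, 0 of 10 for the tetraspanins and galectins and 3 of 18 for the microglia markers. In that fit 273 of all 15526 tested genes were higher.

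Other cell types that could carry the 6 genes were read from their markers. Their counts stand beside 4.93% higher and 1.6% lower of all tested genes. Border macrophage markers had mean log2 values of 6.06 to 6.56 on the Bcl2l1-deleted arrays and 5.43 to 5.98 on the control arrays, with 2 of 7 higher: Ms4a7 (2.00, adjusted p = 0.00998) and the mannose receptor gene Mrc1 (1.42, adjusted p = 0.0140), while the chemokine gene Pf4 changed by 0.52 (adjusted p = 0.0730). All 7 markers of monocytes and neutrophils, and 5 of 8 markers of lymphocytes, lay below the dim filter by their mean over the 8 arrays, and the other 3 lymphocyte markers averaged 4.56 to 4.96 on the Bcl2l1-deleted arrays and 4.63 to 4.84 on the control arrays. Astrocyte and Bergmann glia markers averaged 9.34 to 10.02 on the Bcl2l1-deleted arrays and 8.34 to 9.66 on the control arrays, with 3 of 8 higher. Oligodendrocyte precursor markers averaged 8.42 to 8.90 on the Bcl2l1-deleted arrays and 7.90 to 8.48 on the control arrays, with 2 of 6 higher. Fibroblast markers averaged 7.26 to 7.88 on the Bcl2l1-deleted arrays and 6.06 to 6.65 on the control arrays, with 4 of 6 higher. Of those called, Ogn had a control mean of 4.36, under the dim cut of 4.38. It passed the filter through the Bcl2l1-deleted group, so its change is a description. Endothelial markers averaged 7.12 to 7.28 on the Bcl2l1-deleted arrays and 6.36 to 6.61 on the control arrays, with 3 of 6 higher. Pericyte and smooth muscle markers averaged 7.22 to 7.56 on the Bcl2l1-deleted arrays and 5.97 to 6.94 on the control arrays, with 2 of 5 higher. Other markers were lower: those of differentiating granule neurons averaged 5.15 to 6.96 on the Bcl2l1-deleted arrays and 7.24 to 8.32 on the control arrays, with 6 of 7 lower, and those of choroid plexus 5.70 to 6.17 on the Bcl2l1-deleted arrays and 7.23 to 7.76 on the control arrays, with 2 of 5 lower. Of these choroid plexus calls, Folr1 had a Bcl2l1-deleted mean of 4.32, under the dim cut of 4.38. It passed the filter through the control group, so its change is a description. The part of these cells in the values of the 6 genes was not tested.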

How the data were processed

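The deposited values are log2 RMA expression values of 8 Affymetrix whole-transcript arrays, from the gene expression workflow of Partek, per the labels. The sources used here name no version, options or genome build. RMA compresses differences near background, and 4 arrays per group limit the precision. Of 41345 probe sets, 23521 had 1 symbol, 1814 several and 16010 none in the platform annotation. Entrez identifiers of 23328 matched RefSeq (GRCm38.p6), changing 0 symbols. The highest-mean probe set stood for each of 22180 genes (1082 had several), and genes whose mean did not exceed 4.38, the 30th percentile, were left out.

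The test was limma (version 3.58.1, R 4.3.3) on Bcl2l1-deleted minus control, two-sided and without covariates, and p-values were adjusted by Benjamini-Hochberg over every tested gene. On simulated data in this layout with 15526 genes, a shift of 2 log2 units was recovered for 95% of 100 genes. A shift of 1 was recovered for 68% of 100, with 2 false calls. These figures describe the simulated arrays alone. Whether they hold with an array that stands apart, such as control replicate 2, was not tested. They are not read as the reliability of the calls in these tumours. The genes and lists were chosen with earlier results of these data known. Named were the 6 measured genes, Bcl2l1, the 3 smallest p of each related list and of the microglia and border macrophage lists, and the 5 genes most like the mean of the 6. Other filters, priors, scalings, probe set choices, a replicate block and leaving out each array were alternatives.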

Additional observations from a re-analysis of the deposited data

Results flagged for a closer look

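In 4 of 70 groups of arrays examined over 35 named genes, 1 of 4 arrays lay far from the other 3, which chance does in about 1 group of 20. Lilrb4a was at 4.63 on control replicate 4 and at 5.78 to 5.86 on the other controls, and its rise passed without each array in turn. Cd37 was at 6.70 on Bcl2l1-deleted replicate 4, with 7.32 to 7.42 on the others of that group. Cd44 was at 6.19 on Bcl2l1-deleted replicate 4, with 6.32 to 6.34 on the others. Fabp3 was at 6.64 on Bcl2l1-deleted replicate 1, with 7.30 to 7.37 on the others. None of the 6 measured members was among them.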

How the results depend on the processing

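With 4 arrays per group, the single call among the 6 measured genes was not stable. The number called was 0 with no filter on dim genes, 0 with the receptor median as a covariate, 2 with the mean of a gene's probe sets and 2 with its dimmest probe set (an alternative chosen after seeing the data), the second gene being Fabp5 in both, and 0 to 2 when 1 array was left out. Over all genes 548 passed with no filter, 3494 with array weights and 20 to 2100 when 1 array was left out, against 1013. Relative to the microglia markers, where 3 genes passed, 0 did with the receptor covariate. The split of all calls followed the scaling: 765 higher and 248 lower as deposited, 1337 and 171 with arrays centred on the median of all probe sets, 390 and 699 centred on the tested genes, and 273 and 404 with the receptor covariate. Direction turned for Lpl, Cd9 and Fabp5 in the settings named above, with Lpl at -0.21, -0.098 and -0.022 (-0.022 to 0.12 when 1 array was left out), Cd9 at 0.11, 0.0095 and 0.017 (-0.16 to 0.0095) and Fabp5 at -0.0465. Relative to the microglia markers it turned for Gpnmb with the receptor covariate (-0.0285), for Fabp5 on the dimmest probe set (0.43) and for Cst7 with the median filter (-0.045), quantile normalization (-0.071), array weights (-0.31) and without Bcl2l1-deleted replicates 3 (-0.037) and 4 (-0.093) and control replicate 4 (-0.19), in a range of -0.19 to 0.16 when 1 array was left out. The cause was not tested. Deviations of same-numbered arrays correlated at -0.13 to 0.05, and those of differently numbered arrays at -0.24 to 0.22. These values cannot show whether the numbers pair the animals. A fit with the replicate number as a block called 508 genes, 0 of them members (Gpnmb adjusted p = 0.0553).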
